A study of Mus musculus with 10 samples.

Results

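Interferon-stimulated genes are described here as a listed group of 41 mouse genes, followed across 10 RNA-seq libraries of CD8 T cells that were starved of glucose with or without acetate. The list was taken as given, each gene was found in the count tables by the Ensembl identifier that belongs to its symbol, and the 41 stand among 53465 genes counted. Of the 41, 34 had enough counts to be tested, against 13182 genes tested in all. The other 7, Ifit1, Ifit3, Cmpk2, Ifi44, Rtp4, Oas2 and Oasl1, are given by their counts.

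Interferons signal through receptors at the cell surface to Janus kinases and STAT proteins. Type I interferons mainly give the complex ISGF3, which includes Stat2 and Irf9 and binds interferon-stimulated response elements (ISRE), while interferon-γ acts mainly through gamma-activated sites (GAS). The genes so induced block steps of virus replication, sense foreign nucleic acid, modify proteins and feed back on the pathway, and activated CD8 T cells are themselves a main source of interferon-γ.

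The cells were OT-I CD8 T cells from spleens and peripheral lymph nodes of C57BL/6 mice. The OT-I transgenic receptor recognises an ovalbumin peptide, and all cells were activated with that peptide at 100 ng/ml and with recombinant human interleukin-2 at 100 U/ml, in medium with 25 mM glucose. After 3 days the cells were moved to 1 mM glucose, for 120 h in the libraries labelled d9 and for 24 h in those labelled d5. For the last day they were given 5 mM sodium acetate or none, and all were restimulated for 4 h with PMA and ionomycin, which activate T cells downstream of the receptor. The 4 groups were d9 with acetate (n = 3), d9 without acetate (n = 3), d5 with acetate (n = 2) and d5 without acetate (n = 2). At d5 that last day is the whole restriction, and at d9 it is a small part of it. The names d5 and d9 are those of the labels and do not equal 3 days plus the restriction. Age and sex of the mice are not stated in the labels, and cells kept in 25 mM glucose were not analysed here. Since the labels do not say that replicates came from separate cultures or mice, the p-values measure the spread between these libraries, which may be technical.

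Libraries held 16.59 to 24.66 M counts, and every d9 library was deeper than every d5 library, so depth, length of restriction and time in culture cannot be told apart in any comparison of d9 with d5. The defining T cell markers were present in every library, with summed levels of 1882 to 2820 CPM for 7 genes including Cd3d, Cd8a and Cd8b1. CPM here are counts scaled to a library size adjusted by TMM. Cd4 averaged at most 1.31 CPM in any group. The first 2 principal components carried 66.2 and 11.4% of the variance. The first component split d9 from d5. On the second, d9 acetate replicate 2 and d9 no acetate replicate 1 were set apart from the remaining 4 d9 libraries, and ribosomal protein genes took 15.1 and 15.4% of their counts, against 11.2 to 12.7% in those 4. The second component also split d5 by acetate, at -16.4 and -32.9 with it and 18.2 and 29.2 without. The 2 d9 libraries set apart lay at -26.1 and -19.9, on the side of d5 with acetate.

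Promoter sequences are shown for 6 of the genes because they carry the letters of the ISRE. Sequences from RefSeq (GRCm38.p6), reaching from 250 bases before to 50 bases after a gene's start, were present for 32 of the 41 genes. The ISRE was searched as GAAA, any 2 bases (NN) and GAAA, and the GAS as TTCNNNGAA, on both strands. Each line holds the 150 bases that end at the base before the start, 5′ to 3′ on the gene's own strand, with the bases of ISRE matches in capitals (a match on the other strand reads TTTC, NN and TTTC).
Isg15: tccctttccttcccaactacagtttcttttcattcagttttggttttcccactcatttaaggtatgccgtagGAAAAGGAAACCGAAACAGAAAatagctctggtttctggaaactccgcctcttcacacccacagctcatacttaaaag
Oas1a: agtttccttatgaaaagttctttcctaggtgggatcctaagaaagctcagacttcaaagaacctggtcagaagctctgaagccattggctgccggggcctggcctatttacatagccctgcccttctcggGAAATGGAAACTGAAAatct
Bst2: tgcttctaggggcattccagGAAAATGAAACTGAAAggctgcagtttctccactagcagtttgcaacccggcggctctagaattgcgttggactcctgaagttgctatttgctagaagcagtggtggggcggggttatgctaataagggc
Igtp: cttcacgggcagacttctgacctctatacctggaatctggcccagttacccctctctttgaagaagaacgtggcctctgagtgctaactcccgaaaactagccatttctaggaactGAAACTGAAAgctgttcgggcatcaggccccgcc
Rsad2: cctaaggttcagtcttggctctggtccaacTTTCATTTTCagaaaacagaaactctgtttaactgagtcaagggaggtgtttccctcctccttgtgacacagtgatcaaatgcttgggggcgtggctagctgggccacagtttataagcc
Ifit1: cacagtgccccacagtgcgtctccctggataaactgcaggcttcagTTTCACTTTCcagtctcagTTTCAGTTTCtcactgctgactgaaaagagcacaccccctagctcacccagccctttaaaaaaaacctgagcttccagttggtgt
The stretches lie at chr4:156200819-156200968 (Isg15, minus strand), chr5:120907526-120907675 (Oas1a, minus), chr8:71537473-71537622 (Bst2, minus), chr11:58199406-58199555 (Igtp, plus), chr12:26456453-26456602 (Rsad2, minus) and chr19:34640739-34640888 (Ifit1, plus). In Isg15, Oas1a and Bst2 the matches overlap each other, and together they cover 22, 16 and 16 bases. Over the 300-base windows, 15 of the 32 genes (46.9%) held the ISRE letters, against 3.99% of 27025 genes with a window. These 15 were Bst2, Ddx58, Eif2ak2, Gbp2, Gbp3, Ifih1, Ifit1, Ifit3, Igtp, Irgm1, Isg15, Oas1a, Oas3, Rsad2 and Stat2. The GAS letters were present in 8 of 32 (25%), Adar, Bst2, Eif2ak2, Ifi35, Ifit2, Igtp, Isg20 and Oas1a, against 9.55% of genes. The windows of Bst2, Oas1a, Igtp and Eif2ak2 held both, and in Bst2 the GAS letters overlap the first ISRE match. A match describes letters and not binding.

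Most of these genes stood higher at d9 than at d5, whether or not acetate was present. With acetate, 25 of the 34 tested genes rose at d9 and 2 fell, and without acetate 21 rose and 2 fell (edgeR quasi-likelihood test, Benjamini-Hochberg adjusted p under 0.05 over all genes tested). Usp18, Rsad2 and Oasl2 had enough counts to be tested only through d9 libraries, where they are high. Their calls as higher at d9 are descriptions, and they stay in the counts of the 34 tested genes. The higher calls are 73.5% of the group with acetate, where 18.5% of all genes tested were called higher, and 61.8% without acetate, where 15.9% were. The lower calls are 5.88% of the group in each, where 23.1% of all genes were called lower with acetate and 21.2% without. In either direction 27 of 34 were called with acetate and 23 without, where 41.6 and 37.1% of all genes were. The median d9 over d5 difference of the 34 genes was 0.99 on the log2 scale with acetate and 0.85 without, against -0.01 for all genes in both. With scaling by library size alone, 33.9% of called genes with acetate and 32.3% of those without were higher at d9, in place of 44.5% and 42.8%, and the median of all genes moved by -0.10.

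Of the 25 genes called higher with acetate and the 21 called higher without it, 20 were shared: Bst2, Ddx58, Dhx58, Dtx3l, Gbp2, Gbp3, Igtp, Irf7, Irf9, Isg15, Isg20, Lgals3bp, Mx1, Oas1a, Parp9, Stat2, Tor3a, Usp18, Xaf1 and Zbp1. Adar, Oas3, Oasl2, Rsad2 and Trim25 were past the threshold with acetate and not without it, and Ifi35 without acetate and not with it. The difference between those effects passed the threshold for none of the 34 genes. Ifit2 and Ifih1 were lower at d9 in both states. Eif2ak2, Herc6, Irgm1, Parp14, Samd9l and Sp100 passed in neither. In 22 of the 34 genes (64.7%) all 6 d9 libraries lay above all 4 d5 libraries, where this held for 15.5% of all genes tested, and in 2 genes (5.88%) all 6 lay below, where 20.6% of all genes did. Within the acetate libraries d9 lay wholly above d5 in 28 of 34 genes (82.4%, where 29.1% of all genes did), and without acetate in 25 (73.5%, where 29.7% did). It lay wholly below in 2 genes in each state (5.88%, where 33.4% of all genes did in each). Without the 2 d9 libraries set apart, 26 rose and 2 fell with acetate, and 24 rose and 2 fell without it.

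**Figure D1:**
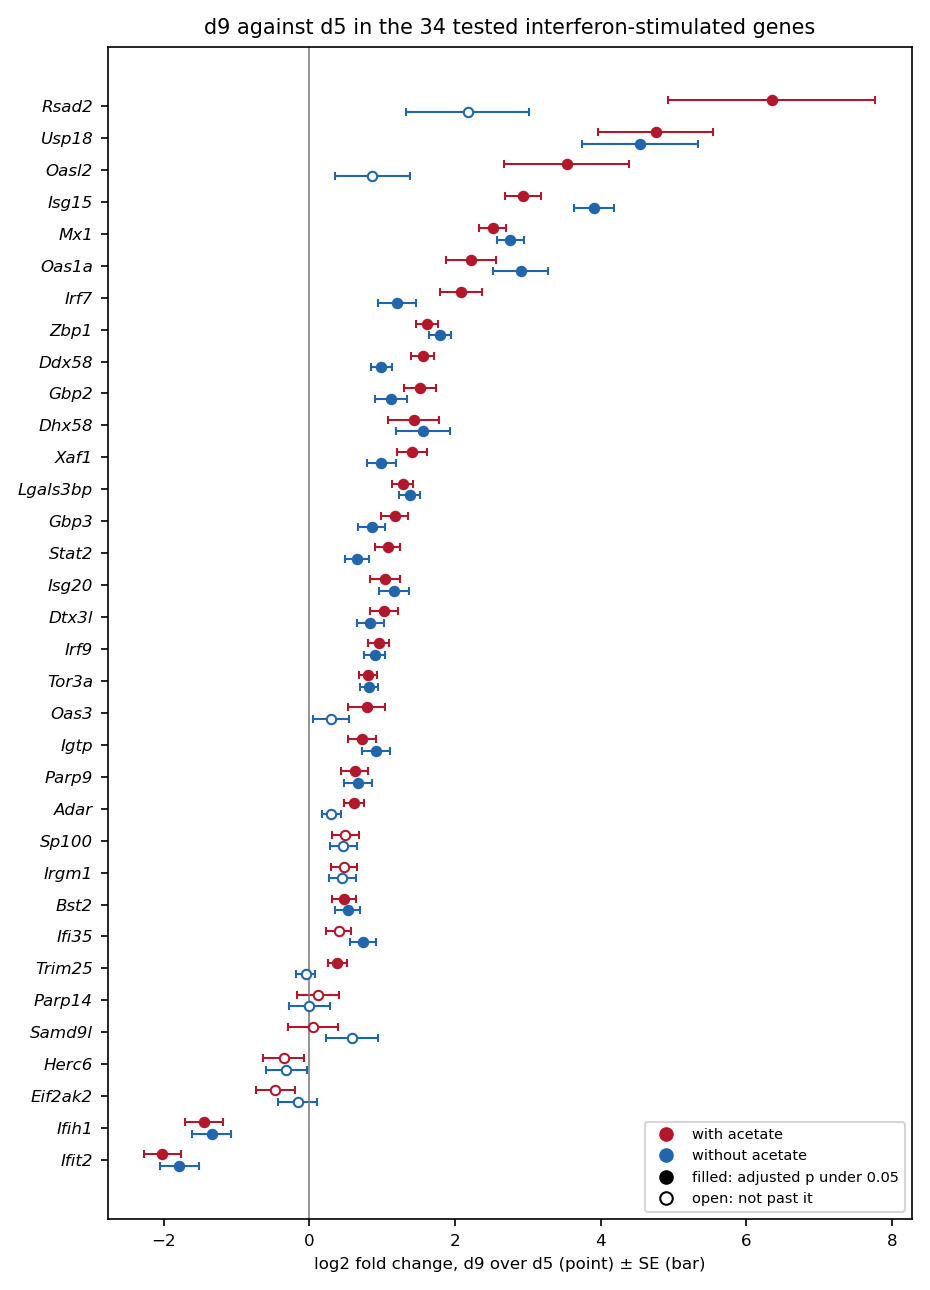
Log2 fold change of d9 over d5 with its standard error for the 34 tested genes, with acetate in red above without acetate in blue, and filled points for an adjusted p under 0.05. Points of 25 genes with acetate and 21 without are filled to the right of 0, and those of Ifit2 and Ifih1 are filled to its left. The points of Rsad2, Oasl2 and Usp18 rest on 0 to 10 counts per d5 group and their size depends on the fit's prior count. Those of Oas1a rest on 3 to 8 counts per d5 library.

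Summed over the 41 genes, the level was 1118 to 1256 CPM in the d9 libraries with acetate, 1186 to 1214 CPM in those without, 643 and 656 CPM at d5 with acetate, and 742 and 679 CPM at d5 without it. The number of these genes with at least 1 CPM changed little beside that, being 31 or 32 in each d9 library and 29 or 30 in each d5 library. In bulk RNA, more cells with a transcript and more RNA per cell cannot be told apart. Per kb of exon, which allows genes to be compared, Bst2 was the highest, with group means of 102 CPM per kb at d9 with acetate, 98.0 at d9 without, 73.3 at d5 with and 68.1 at d5 without. Gbp2 came next, at 67.3 CPM per kb at d9 with acetate, 57.3 at d9 without, 23.4 at d5 with and 26.4 at d5 without. At the other end, Ifi44 averaged 0.0215 CPM per kb over all libraries. Bst2 led in every library, and Gbp2 was second in all but d5 acetate replicate 2, where Ifi35 was.

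**Figure D2:**
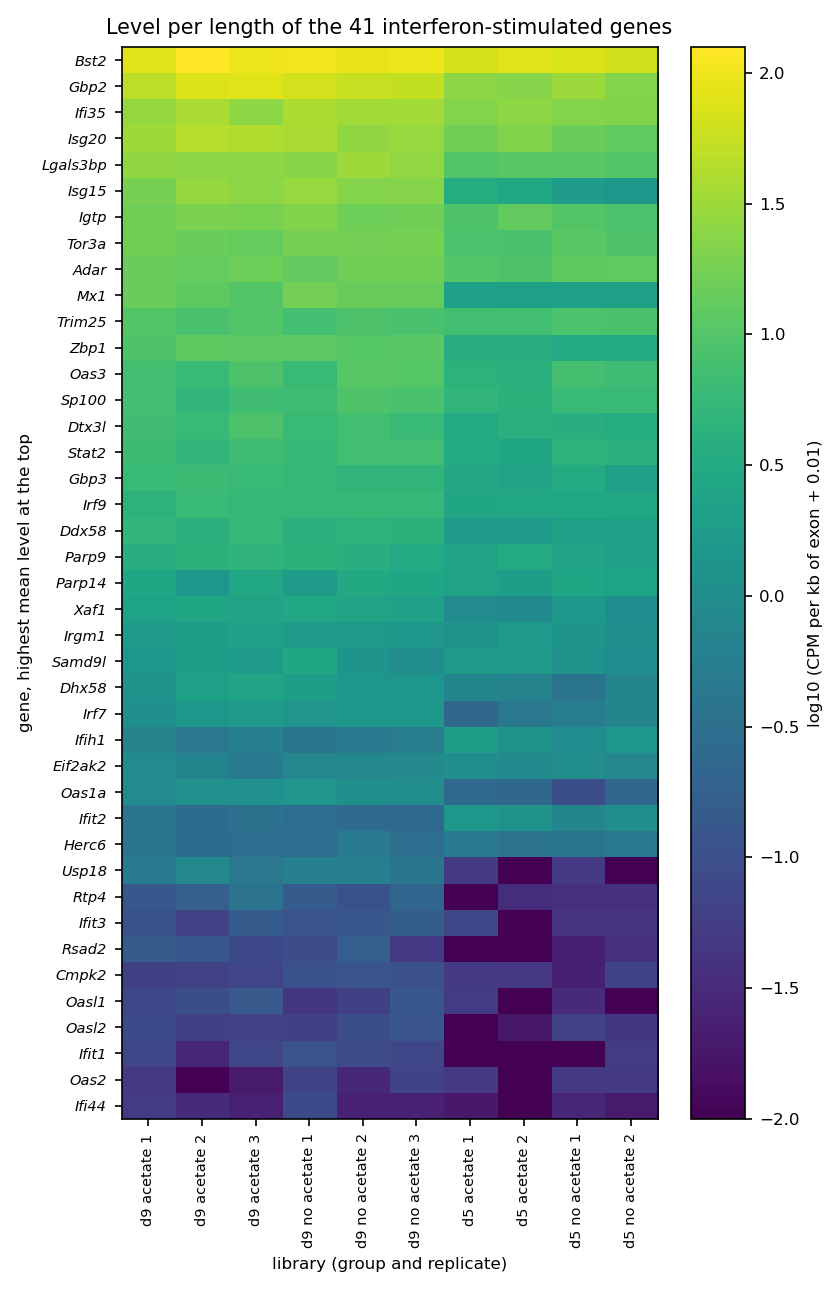
Level per length, log10 of CPM per kb of exon plus 0.01, of all 41 genes (rows, highest mean at the top) in the 10 libraries (columns, d9 left of d5). Bst2 leads in every column, Isg15 and Mx1 are higher in all 6 d9 columns than in the 4 d5 columns, and several of the lowest rows hold libraries with 0 counts.

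In the ISG15 system, 3 of 4 genes rose at d9 with acetate and 2 without, where 18.5 and 15.9% of all genes did. Isg15, a ubiquitin-like protein that is secreted and is also joined to other proteins, lies at chr4:156199424-156200818 on the minus strand (GRCm38, as are all coordinates). It stood at 13.7, 21.5 and 18.6 CPM in the d9 libraries with acetate and 21.7, 16.5 and 16.9 CPM in those without, against 2.58 and 2.10 CPM at d5 with acetate and 1.32 and 1.11 CPM at d5 without. The 6 d9 values do not come near the 4 at d5. The log2 difference of d9 over d5 was 2.94 ± 0.25 (SE) with acetate (adjusted p = 2.12e-05) and 3.91 ± 0.28 without (adjusted p = 6.78e-06). Usp18 (chr6:121245906-121270917), the protease that removes ISG15 and also restrains the type I interferon receptor, was close to absent at d5. Its levels were 1.39, 2.34 and 1.15 CPM at d9 with acetate and 1.66, 1.61 and 1.09 CPM without, against 0.112 and 0 CPM at d5 with acetate and 0.110 and 0 CPM without. As counts these are 111 in the 3 d9 libraries with acetate against 2 in the 2 d5 libraries. Per TMM-scaled library size, the ratio was 29.6 with an exact 95% counting interval of 8.01 to 248. Without acetate the counts were 100 against 2, a ratio of 25.6 (6.89 to 214). Such intervals cover counting error only. Both differences passed the test (adjusted p = 0.00091 with and 0.00147 without acetate). Usp18 had enough counts to be tested only through its d9 libraries, so these calls are descriptions. Trim25, an E3 ligase for ISG15 and for ubiquitin, rose at d9 with acetate (53.8 ± 5.81 CPM at d9 against 41.2 ± 0.357 CPM at d5, adjusted p = 0.037), while without acetate its log2 difference was -0.05 ± 0.13. Its call with acetate was lost without d9 acetate replicate 1 (0.0877) or 3 (0.0928), d9 no acetate replicate 3 (0.0547), or any of the d5 libraries (adjusted p of 0.052 to 0.149). It was also lost when scaled by library size only (0.131), with the replicate block (0.0928) and with only the libraries compared (0.0728). Herc6, in mouse the main ligase for ISG15, averaged 2.94 ± 0.704 and 3.18 ± 0.915 CPM at d9 with and without acetate, against 3.76 ± 0.629 and 3.96 ± 0.601 CPM at d5 with and without it, and passed in no comparison.

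**Figure D3:**
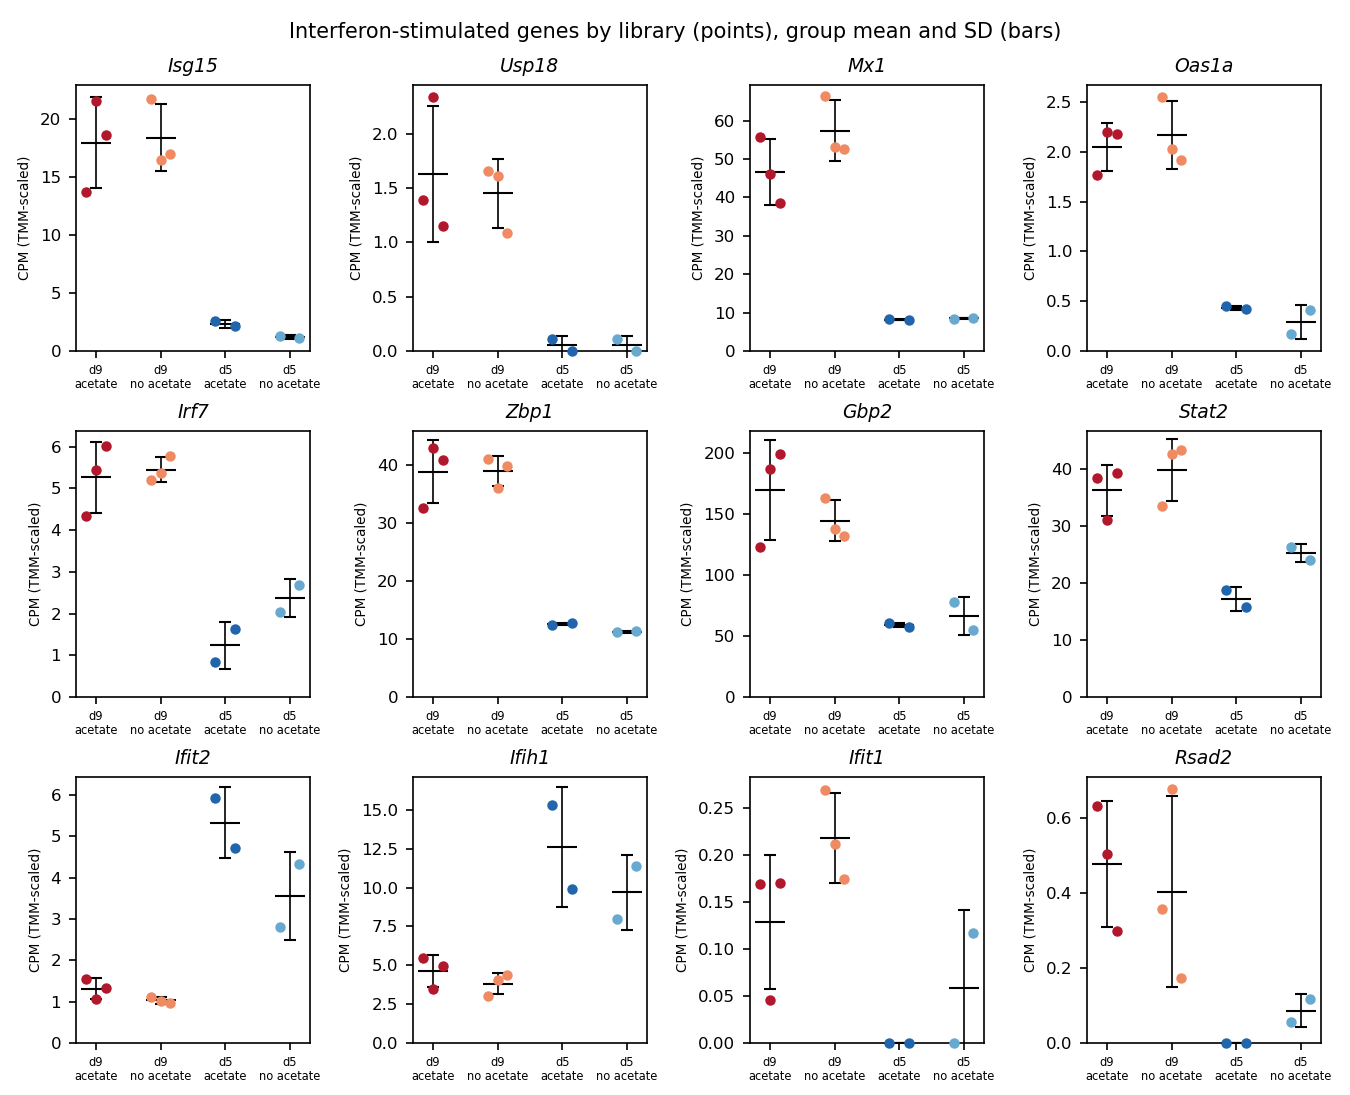
CPM after TMM scaling of 12 genes in each library (points), with group means and SD (bars), groups from left to right being d9 with acetate, d9 without, d5 with and d5 without. For Isg15, Usp18, Mx1, Oas1a, Irf7, Zbp1, Gbp2, Stat2 and Rsad2 all 6 d9 points lie above all 4 d5 points, and for Ifit2 and Ifih1 all 6 lie below. In Ifit1 the points stand for 0 to 6 counts each.

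Among the genes with direct antiviral functions, 6 of 9 tested rose at d9 with acetate and 4 without, and 1 fell in each. The shares of all genes with and without acetate were 18.5 and 15.9% higher, and 23.1 and 21.2% lower. Mx1 (chr16:97447035-97462907) encodes a dynamin-like GTPase against influenza-type viruses, and in C57BL/6 its gene carries a deletion and gives no functional protein. It showed the smallest p of the group in both comparisons. Mx1 reached 55.6, 46.0 and 38.4 CPM at d9 with acetate and 66.5, 53.2 and 52.5 CPM at d9 without, against 8.24 and 8.05 CPM at d5 with acetate and 8.44 and 8.47 CPM at d5 without. The d5 libraries were nearly equal, and d9 over d5 was 2.52 ± 0.19 on the log2 scale with acetate (adjusted p = 1.03e-05) and 2.76 ± 0.19 without (adjusted p = 6.03e-06). Isg20, an exonuclease that degrades RNA, had 58.9, 80.9 and 74.7 CPM at d9 with acetate and 70.5, 48.2 and 55.1 CPM without, against 30.2 and 39.4 CPM at d5 with acetate and 28.3 and 23.4 CPM without. The days did not overlap, with log2 differences of 1.04 ± 0.20 with acetate (adjusted p = 0.00254) and 1.16 ± 0.21 without (adjusted p = 0.00155). Xaf1, an antagonist of the apoptosis inhibitor XIAP, had 11.0, 11.8 and 11.6 CPM at d9 with acetate and 13.1, 11.7 and 10.4 CPM without, against 4.48 and 4.15 CPM at d5 with acetate and 7.17 and 4.61 CPM without, all d9 above all d5. Its log2 differences were 1.41 ± 0.20 with acetate (adjusted p = 0.000432) and 0.99 ± 0.20 without (adjusted p = 0.00311).

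Bst2, or tetherin, which holds budding virus at the cell membrane, was abundant in every group and differed less. Its libraries had 74.5, 113 and 88.3 CPM at d9 with acetate and 93.1, 82.2 and 90.2 CPM without, against 61.5 and 70.9 CPM at d5 with acetate and 65.3 and 57.7 CPM without. All d9 libraries lay above all d5 libraries, though the highest d5 value, in an acetate library, was close to the lowest at d9. The log2 differences were 0.47 ± 0.17 with acetate (adjusted p = 0.0427) and 0.52 ± 0.17 without (adjusted p = 0.0317). With acetate the call was lost on leaving out any library other than d9 acetate replicate 1 or d9 no acetate replicate 1 (adjusted p of 0.054 to 0.231). Without acetate it was lost on leaving out d9 no acetate replicate 1 (0.0506) or 3 (0.0739) or d5 no acetate replicate 1 (0.0852) or 2 (0.194). Both calls were also lost when scaled by library size only (0.0944 with and 0.0659 without acetate) and with the replicate block (0.0822 and 0.0626). The call with acetate was lost with limma-voom (0.0504) and the filter of 2 CPM in 2 libraries (0.0594) too. Adar, which edits adenosine to inosine in double-stranded RNA, averaged 118 ± 9.26 CPM at d9 with acetate and 123 ± 15.7 CPM without, against 77.1 ± 5.54 CPM at d5 with acetate and 100.1 ± 4.33 CPM without. It rose with acetate (adjusted p = 0.00427), and without acetate its log2 difference was 0.30 ± 0.13 (adjusted p = 0.0944, and 0.0193 without d9 no acetate replicate 1). Samd9l, a translation inhibitor, and Eif2ak2, the kinase PKR, passed in neither comparison. Their log2 differences of d9 over d5 were 0.05 ± 0.34 with and 0.58 ± 0.36 without acetate for Samd9l, and -0.47 ± 0.26 with and -0.16 ± 0.27 without for Eif2ak2, which passed as lower with acetate once d9 acetate replicate 1 was left out (adjusted p = 0.0402).

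Ifit2 (chr19:34550694-34576419), an RNA-binding translation inhibitor, went the other way from most of the group. It had 1.56, 1.05 and 1.32 CPM at d9 with acetate and 1.12, 1.02 and 0.957 CPM without, against 5.94 and 4.73 CPM at d5 with acetate and 2.81 and 4.32 CPM without. Every d9 library was below every d5 library, with log2 differences of -2.02 ± 0.25 with acetate (adjusted p = 0.00018) and -1.78 ± 0.27 without (adjusted p = 0.000556). Its neighbours on chromosome 19, Ifit3 and Ifit1, which also encode Ifit-family RNA binders, had at most 6 counts in any library. Ifit1 had 9 counts over the 3 d9 libraries with acetate and 15 without, against 0 and 2 over the 2 d5 libraries with and without it. Ifit3 had 12 and 15 at d9 with and without acetate, against 2 and 2 at d5. Reads of Ifit3 can also match the near-identical Ifit3b, so its count is uncertain. A ratio per TMM-scaled library size of 3.20 (exact 95% counting interval 0.713 to 29.5) with acetate and 3.83 (0.892 to 34.6) without does not separate the days for Ifit3 at this depth.

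The remaining antiviral genes had few counts. Rsad2, or viperin, which makes a chain-terminating nucleotide, had 33 counts over the d9 libraries with acetate and 28 without, against 0 and 3 at d5 with and without it. Against a floor of 3 counts over the d5 group, the ratio of Rsad2 with acetate was 5.87, with no allowance for counting error (adjusted p = 0.00627). Rsad2 had enough counts to be tested only through d9 libraries, so that call is a description. The ratio per TMM-scaled library size was 4.77 (1.47 to 24.5) without acetate, where the test was not passed (adjusted p = 0.0693, and 0.0335 without d9 no acetate replicate 3). Rtp4, a chaperone of membrane receptors, had 32 counts at d9 with acetate and 22 without, against 1 and 2 at d5 with and without it, ratios of 17.1 (2.85 to 696) with and 5.62 (1.38 to 49.3) without. Ifi44, of unclear function, had 11 and 14 counts at d9 with and without acetate, against 1 and 3 at d5. Cmpk2, a nucleotide kinase that is a neighbour of Rsad2, had 5 to 11 counts in each d9 library and 1 to 4 in each d5 library. These untested genes have no call.

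Of the oligoadenylate synthetase family, which includes enzymes that make the second messenger that activates RNase L, the 3 tested genes all rose with acetate and 1 rose without. For all genes the shares that rose were 18.5 and 15.9%. Oas1a had 1.77, 2.20 and 2.17 CPM at d9 with acetate and 2.55, 2.03 and 1.91 CPM without, against 0.448 and 0.421 CPM at d5 with acetate and 0.166 and 0.409 CPM without. No d9 library came near the d5 level, and the log2 differences were 2.22 ± 0.34 with acetate (adjusted p = 0.000633) and 2.90 ± 0.37 without (adjusted p = 0.000229). The d5 libraries held only 8 and 8 counts of Oas1a with acetate and 3 and 7 without, so the size of these differences is uncertain. Oas1a belongs to a cluster of near-identical mouse Oas1 copies, among which the counting could split reads. Oas3 was the member of the family with the highest level per kb, 7.40 CPM per kb at d9 with acetate and 8.95 without, against 4.30 at d5 with and 7.30 without. Its libraries had 53.2, 41.5 and 62.4 CPM at d9 with acetate and 41.1, 75.5 and 73.2 CPM without, against 31.4 and 29.3 CPM at d5 with acetate and 55.4 and 47.7 CPM without, so the days did not overlap with acetate and did without it. Oas3 rose with acetate at 0.79 ± 0.25 on the log2 scale (adjusted p = 0.0295) and did not pass without it at 0.29 ± 0.25 (adjusted p = 0.376). That depended on single libraries: the call with acetate was lost without d9 acetate replicate 1 (0.0634) or 3 (0.0904) or d5 acetate replicate 1 (0.102) or 2 (0.136), and a call without acetate was gained without d9 no acetate replicate 1 (0.033). The Oas3 call with acetate was also lost when scaled by library size only (0.054) and with the replicate block (0.0812). Oasl2, an OAS-like protein with a ubiquitin-like end, had 26 counts over the d9 libraries with acetate against 1 at d5 (ratio 13.9, 2.28 to 569, adjusted p = 0.00805, and 0.0704 without d5 acetate replicate 1). Only d9 libraries gave it enough counts to be tested, so that call is a description. Without acetate it averaged 0.520 ± 0.193 CPM at d9 and 0.282 ± 0.0688 CPM at d5 (adjusted p = 0.208). Oasl1, which in mouse restrains the translation of Irf7, had 17 and 12 counts at d9 with and without acetate, against 2 and 1 at d5. Oas2 had at most 6 counts in any library.

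Of the transcription factors and other nuclear or regulatory proteins, 3 of 5 rose with acetate and 4 of 5 without. Among all genes 18.5 and 15.9% did. Irf7, which drives type I interferon genes, had 4.34, 5.45 and 6.01 CPM at d9 with acetate and 5.20, 5.38 and 5.79 CPM without, against 0.841 and 1.63 CPM at d5 with acetate and 2.04 and 2.69 CPM without. No d5 library reached the d9 range, and the log2 differences were 2.08 ± 0.29 with acetate (adjusted p = 0.000317) and 1.21 ± 0.26 without (adjusted p = 0.00491, and 0.0631 without d5 no acetate replicate 1). Irf9, the DNA-binding subunit of ISGF3, had 24.0, 31.9 and 28.9 CPM at d9 with acetate and 28.7, 28.5 and 28.6 CPM without, against 13.7 and 15.6 CPM at d5 with acetate and 15.7 and 15.1 CPM without. Its d5 libraries formed a narrow band below all d9 libraries, at 0.95 ± 0.15 on the log2 scale with acetate (adjusted p = 0.000593) and 0.90 ± 0.15 without (adjusted p = 0.000922). Stat2, its partner, had 38.4, 31.0 and 39.2 CPM at d9 with acetate and 33.5, 42.5 and 43.2 CPM without, against 18.7 and 15.7 CPM at d5 with acetate and 26.3 and 24.1 CPM without. The d5 libraries with acetate were the lowest of all, no d5 library reached the d9 range, and d9 over d5 was 1.07 ± 0.17 with acetate (adjusted p = 0.000627) and 0.66 ± 0.16 without (adjusted p = 0.00941, and 0.0855 without d5 no acetate replicate 2).

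Ifi35, a leucine-zipper protein that binds other interferon-induced proteins, had 48.8, 66.4 and 44.3 CPM at d9 with acetate and 69.0, 58.5 and 58.4 CPM without, against 37.3 and 42.9 CPM at d5 with acetate and 37.5 and 36.7 CPM without. All d9 libraries were above all d5 libraries, yet the test was passed without acetate (0.74 ± 0.17, adjusted p = 0.00757) and not with it (0.41 ± 0.17, adjusted p = 0.0811). The call without acetate was lost without d5 no acetate replicate 1 (0.0525) or 2 (0.0596), and one with acetate was gained without d9 acetate replicate 3 (0.0409). Sp100, a component of nuclear bodies, averaged 49.1 ± 9.69 CPM at d9 with acetate and 61.4 ± 9.64 CPM without, against 34.9 ± 3.30 CPM at d5 with acetate and 44.4 ± 1.29 CPM without. It lay outside the threshold (adjusted p = 0.0535 with and 0.069 without acetate) and passed in both without d9 acetate replicate 2 (0.00714 with and 0.0218 without acetate) or without d9 no acetate replicate 1 (0.0239 and 0.0218).

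Sensors of nucleic acid split by gene. Ddx58 (RIG-I) and Ifih1 (MDA5) both detect viral RNA and signal through Mavs, and they moved in opposite directions. Ddx58 had 36.4, 28.4 and 38.1 CPM at d9 with acetate and 29.0, 31.2 and 30.7 CPM without, against 11.3 and 12.1 CPM at d5 with acetate and 14.9 and 15.7 CPM without. It rose by 1.55 ± 0.15 on the log2 scale with acetate (adjusted p = 4.71e-05) and 0.99 ± 0.15 without (adjusted p = 0.000578), with no overlap between days. Ifih1, given here because it is 1 of only 2 genes that fell and so chosen after its values were seen, lies at chr2:62595798-62646255. It had 5.48, 3.48 and 4.95 CPM at d9 with acetate and 3.05, 4.02 and 4.39 CPM without, against 15.4 and 9.89 CPM at d5 with acetate and 7.999 and 11.4 CPM without. Every d9 library of Ifih1 was below every d5 library, at -1.44 ± 0.26 with acetate (adjusted p = 0.00166) and -1.34 ± 0.27 without (adjusted p = 0.00315). Zbp1, which senses Z-form nucleic acid and can trigger necroptosis, was the most abundant sensor per kb, with 11.0 CPM per kb at d9 with acetate and 11.1 without, against 3.58 at d5 with and 3.18 without. Its libraries had 32.7, 43.0 and 40.97 CPM at d9 with acetate and 41.1, 36.1 and 39.9 CPM without, against 12.5 and 12.8 CPM at d5 with acetate and 11.1 and 11.3 CPM without. The d5 libraries lay within a narrow band, and d9 over d5 was 1.62 ± 0.15 with acetate (adjusted p = 3.16e-05) and 1.79 ± 0.15 without (adjusted p = 1.75e-05). Dhx58 (LGP2), a regulator of those RNA sensors, rose by 1.43 ± 0.35 with acetate (adjusted p = 0.00834) and 1.56 ± 0.37 without (adjusted p = 0.00751). Its call with acetate was lost without d5 acetate replicate 2 (0.0599) and its call without acetate was lost without d5 no acetate replicate 1 (0.0883).

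Dtx3l, a ubiquitin ligase, and its partner Parp9 work as a complex in ADP-ribosylation and share exon sequence on opposite strands at chr16:35926511-35939151 and chr16:35938470-35972605. Dtx3l had 39.2, 34.6 and 52.0 CPM at d9 with acetate and 34.9, 40.6 and 34.2 CPM without, against 18.2 and 23.1 CPM at d5 with acetate and 21.1 and 19.8 CPM without. All d9 libraries exceeded all d5 libraries, at 1.02 ± 0.19 on the log2 scale with acetate (adjusted p = 0.00173) and 0.84 ± 0.19 without (adjusted p = 0.00563, and 0.0552 without d5 no acetate replicate 2). Parp9 rose by 0.62 ± 0.19 with acetate (adjusted p = 0.0226) and 0.67 ± 0.19 without (adjusted p = 0.0188). The calls of Parp9 were lost with acetate without d9 acetate replicate 3 (0.0648) or d5 acetate replicate 1 (0.203), and without acetate on leaving out d5 no acetate replicate 1 (0.0712) or 2 (0.128). The Parp9 call with acetate was also lost when scaled by library size only (0.0532). Parp14, a mono-ADP-ribosyltransferase, did not pass, at 0.12 ± 0.28 with acetate and -0.00282 without on the log2 scale. Its 2 d9 libraries set apart had 13.0 CPM (acetate replicate 2) and 16.9 CPM (no acetate replicate 1), against 24.0 to 28.3 CPM in the other 4. Without both, Parp14 was called higher at d9 with acetate, at 0.37 (adjusted p = 0.0372).

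The interferon-inducible GTPases act on the vacuoles of intracellular microbes and are classical targets of interferon-γ in mouse. Of the 4 here, 3 rose in each state, where 18.5% of all genes did with acetate and 15.9% without. Gbp2 had 122, 186 and 199 CPM at d9 with acetate and 163, 138 and 131 CPM without, against 60.3 and 57.5 CPM at d5 with acetate and 77.5 and 55.1 CPM without. The lowest d9 library was well above the highest d5 library, and d9 over d5 was 1.52 ± 0.22 with acetate (adjusted p = 0.000422) and 1.12 ± 0.22 without (adjusted p = 0.00252). Gbp3 rose by 1.17 ± 0.19 with acetate (adjusted p = 0.000763) and 0.86 ± 0.19 without (adjusted p = 0.00469, and 0.0568 without d5 no acetate replicate 2). Gbp genes resemble each other and lie side by side on chromosome 3, so reads could be split among copies. Igtp, an immunity-related GTPase, rose by 0.73 ± 0.19 with acetate (adjusted p = 0.0114, and 0.119 without d5 acetate replicate 1) and 0.92 ± 0.19 without (adjusted p = 0.00382, and 0.051 without d5 no acetate replicate 2). Irgm1, a regulator of the other immunity-related GTPases, averaged 11.5 ± 1.33 CPM at d9 with acetate and 9.25 ± 0.666 CPM without, against 8.25 ± 1.28 CPM at d5 with acetate and 6.75 ± 1.37 CPM without, and did not pass (adjusted p = 0.0566 with and 0.0793 without). With acetate it passed once d9 no acetate replicate 1 was left out (0.0451).

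Both remaining genes rose. Lgals3bp, a secreted galectin-binding glycoprotein, had 74.2, 68.3 and 71.3 CPM at d9 with acetate and 66.1, 88.9 and 76.3 CPM without, against 27.5 and 31.0 CPM at d5 with acetate and 30.5 and 28.7 CPM without. Days were far apart, at 1.28 ± 0.14 with acetate (adjusted p = 9.3e-05) and 1.38 ± 0.14 without (adjusted p = 5.93e-05). Tor3a, an ATPase of the endoplasmic reticulum, had 62.1, 59.5 and 52.4 CPM at d9 with acetate and 70.6, 68.9 and 70.7 CPM without, against 33.6 and 32.6 CPM at d5 with acetate and 42.9 and 36.6 CPM without. All d9 libraries were higher, at 0.81 ± 0.12 with acetate (adjusted p = 0.000544) and 0.82 ± 0.12 without (adjusted p = 0.000551).

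None of these genes was called for acetate at either day. At d9, 0 of the 34 genes passed the test, where 0.0303% of all genes did. An unadjusted p under 0.05 was found for 1 of 34 (Tor3a, -0.27 ± 0.11, adjusted p = 0.259) and for 2026 of all 13182 genes, a larger share. At d5, 0 of 34 passed, where 1.52% of all genes did. There, 7 of 34 had an unadjusted p under 0.05, as did 2612 of all 13182 genes, a near-equal share. DESeq2 and limma-voom also called 0 of the 34 in both comparisons. The median acetate over no acetate difference was -0.01 at d9 and -0.04 at d5 on the log2 scale, against 0.01 for all genes at each day. A missed threshold does not show equal levels, and at d5 each group had 2 libraries. At d5, both acetate libraries lay above both without acetate in 6 genes (17.6%, where 29.8% of all genes did), Ifit2, Isg15, Isg20, Oas1a, Samd9l and Zbp1. They lay below in 13 genes (38.2%, where 29.2% of all genes did), among them Stat2, Oas3, Adar, Irf7, Sp100 and Ddx58.

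Of the 7 genes with an unadjusted p under 0.05 at d5, 6 were lower with acetate (Oasl2, Stat2, Irf7, Oas3, Adar and Ddx58) and 1 was higher (Isg15). As a share of the 34, these 7 are near the share of all genes, and their values are only described. Isg15 had 2.58 and 2.10 CPM at d5 with acetate and 1.32 and 1.11 CPM without, a log2 difference of 0.94 ± 0.32 (adjusted p = 0.159). Stat2, at 18.7 and 15.7 CPM with acetate and 26.3 and 24.1 CPM without, differed by -0.55 ± 0.18 (adjusted p = 0.14), Oas3 by -0.76 ± 0.27 (adjusted p = 0.17), Irf7 by -0.92 ± 0.32 (adjusted p = 0.166), Adar by -0.38 ± 0.14 (adjusted p = 0.192) and Ddx58 by -0.39 ± 0.16 (adjusted p = 0.225). Oasl2 had 1 count over the d5 acetate libraries and 10 over those without. Leaving out both d9 libraries set apart, which moves the shared estimate of spread, brought Isg15 (0.0405), Stat2 (0.0107), Oas3 (0.00227), Adar (0.0224) and Sp100 (0.0481) past the threshold. Oas3 also passed without d9 no acetate replicate 1 alone (0.0453). Over all genes, these fits called 2162 and 498 genes for acetate at d5, in place of 201, so such gains were not particular to the group. At d9 Isg15 had 13.7, 21.5 and 18.6 CPM with acetate and 21.7, 16.5 and 16.9 CPM without, which overlap. All acetate libraries at d9 lay above all without acetate in Gbp3 and Irgm1 (5.88% of 34, where 9.9% of all genes did), and below in Tor3a (2.94%, where 8.79% did).

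**Figure D4:**
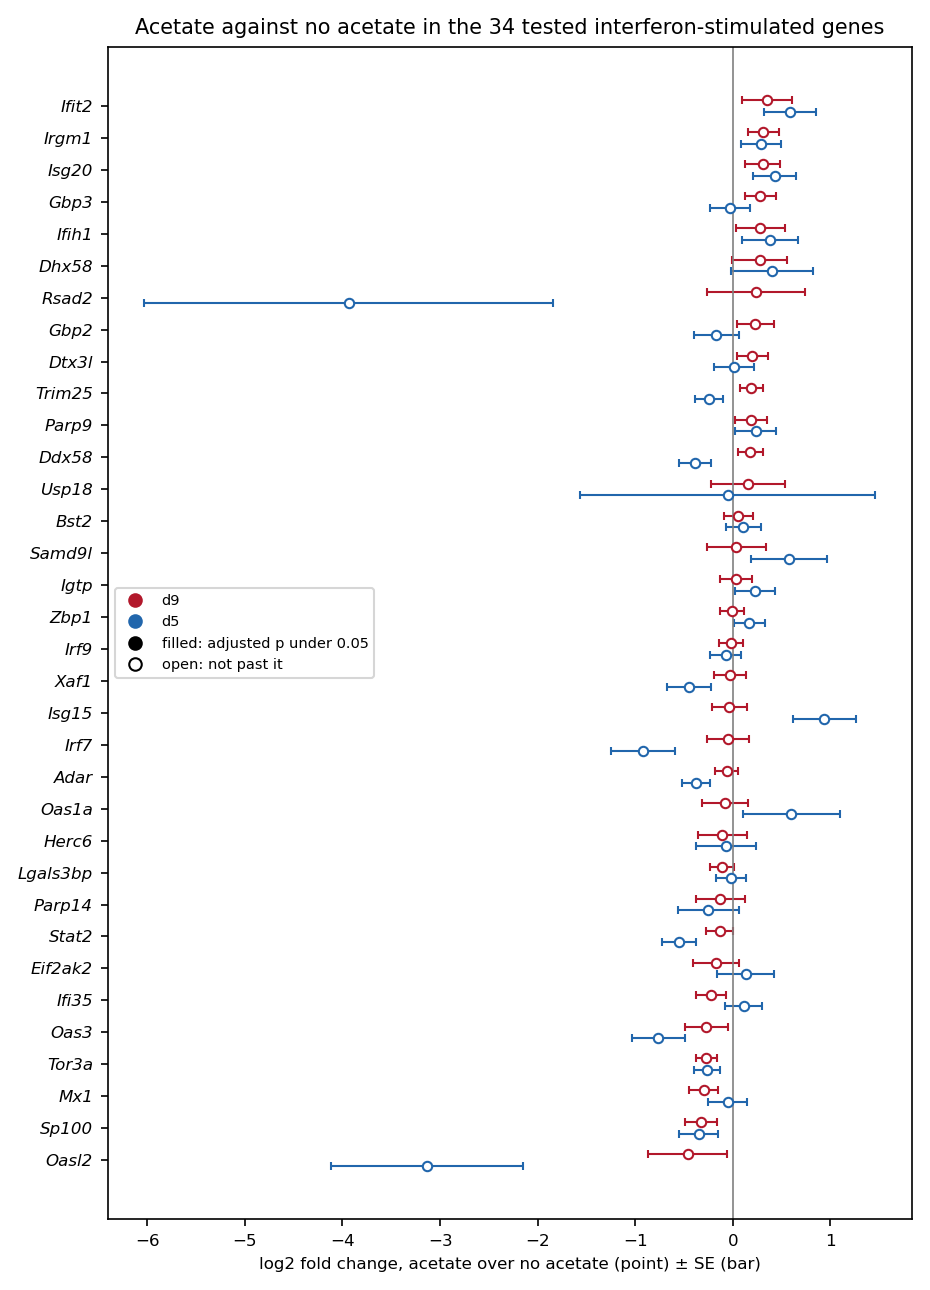
Log2 fold change of acetate over no acetate with its standard error for the 34 tested genes, d9 in red above d5 in blue. All points are open, since none had an adjusted p under 0.05. The d5 points of Rsad2, Oasl2 and Usp18 rest on 10 counts or fewer per group, and that of Oas1a on 3 to 8 counts per library.

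The acetate effect at d9 minus that at d5 passed for 0 of the 34 genes and 0 of all 13182 (0%). An unadjusted p under 0.05 was found for 5 of the 34 (Ddx58, Isg15, Irf7, Oasl2 and Trim25) and for 1015 of the 13182. DESeq2 and limma-voom called 0 of the 34. The difference of effects was -0.97 ± 0.37 on the log2 scale for Isg15 (adjusted p = 0.559), 0.57 ± 0.21 for Ddx58 (adjusted p = 0.527), 0.87 ± 0.39 for Irf7 (adjusted p = 0.64) and 0.43 ± 0.18 for Trim25 (adjusted p = 0.62). These values bear equally on whether d9 over d5 differs with acetate, since it is the same contrast.

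Among 154 other genes of the interferon pathway, 116 were tested. Of 21 interferon ligand genes, only Ifng was, and none of the other 20 exceeded 0.0853 CPM in any library. Ifnb1, the gene of interferon-β, had 0.0853 CPM in d9 acetate replicate 3, 0.0435 CPM in d9 no acetate replicate 3 and 0 elsewhere. Ifng, the gene of interferon-γ, was abundant, with 951, 1046 and 768 CPM at d9 with acetate and 544, 553 and 577 CPM without, and 1169 and 987 CPM at d5 with acetate and 463 and 439 CPM without. All acetate libraries lay above all others. Acetate raised Ifng at d5 by 1.26 ± 0.16 (adjusted p = 0.00976), a call lost on leaving out any of the 4 d5 libraries (adjusted p of 0.0592 to 0.111). At d9 the difference was 0.72 ± 0.13 (adjusted p = 0.0833, and 0.0365 without both libraries set apart), and the DESeq2 test passed it (6.93e-05). It did not pass for d9 over d5, at -0.23 ± 0.14 with acetate (adjusted p = 0.222) and 0.31 ± 0.14 without (adjusted p = 0.117), though with acetate it passed as lower without both libraries set apart (0.0364). Natural killer cell markers, nearly all Klrb1c, were also higher with acetate within each day, summing to 18.2 to 25.9 CPM at d9 with acetate and 9.05 to 13.8 CPM without, and to 5.32 to 6.05 CPM at d5 with acetate and 1.23 to 1.88 CPM without. Klrb1c was called for acetate at d5 only, and was called higher at d9 than at d5 in both states, where Ifng was not. Their part in the acetate difference was not tested. Of the 116 tested pathway genes, Ifng was the 1 called for acetate at d5 in the main fit, where 1.52% of all genes were called.

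Receptor genes rose at d9 in 4 of 5 tested cases in each state, where 18.5% of all genes did with acetate and 15.9% without. The type I receptor chain Ifnar1 had 156, 175 and 167 CPM at d9 with acetate and 170.1, 146 and 146 CPM without, against 139 and 135 CPM at d5 with acetate and 105 and 105 CPM without. It passed without acetate (0.55 ± 0.11, adjusted p = 0.00319) and not with it (0.28 ± 0.11, adjusted p = 0.0635, and 0.0498 without d9 acetate replicate 1 or 0.0273 without d9 no acetate replicate 1). Ifnar2, its partner chain, had 26.5, 24.3 and 28.1 CPM at d9 with acetate and 19.3, 24.8 and 25.7 CPM without, against 13.6 and 12.9 CPM at d5 with acetate and 20.4 and 24.8 CPM without, and passed with acetate (0.99 ± 0.16, adjusted p = 0.00089) and not without it (0.04 ± 0.16, adjusted p = 0.858). The difference of those effects was 0.95 ± 0.22 (adjusted p = 0.229, 0.0269 with the DESeq2 test and 0.039 without both d9 libraries set apart). For acetate at d5, Ifnar2 was not called in the main fit. It was called lower with the DESeq2 test (adjusted p = 0.00604), with no filter (0.012) and with only the libraries compared (0.0155). Those settings called 786, 578 and 1701 genes in all, in place of 201. Ifnar1 was called higher at d5 with acetate with only the libraries compared (0.0449). Ifngr1, the ligand-binding chain for interferon-γ, had 80.2, 96.0 and 123 CPM at d9 with acetate and 81.1, 74.4 and 66.7 CPM without, against 46.2 and 43.3 CPM at d5 with acetate and 44.7 and 44.7 CPM without. It rose in both states, at 1.16 ± 0.17 with acetate (adjusted p = 0.000502) and 0.73 ± 0.17 without (adjusted p = 0.00715). Ifngr2, the signalling chain that limits the response of T cells, also rose in both, at 1.59 ± 0.27 with acetate (adjusted p = 0.00103) and 1.09 ± 0.28 without (adjusted p = 0.0106). Without either d5 no acetate library, the calls without acetate were lost for Ifngr1 (0.0544 and 0.0536) and Ifngr2 (0.0703 and 0.0655). Il10rb, shared by the interferon-λ and interleukin-10 receptors, was the other receptor gene called in both, though not with acetate once d5 acetate replicate 1 was left out (0.0858).

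**Figure D5:**
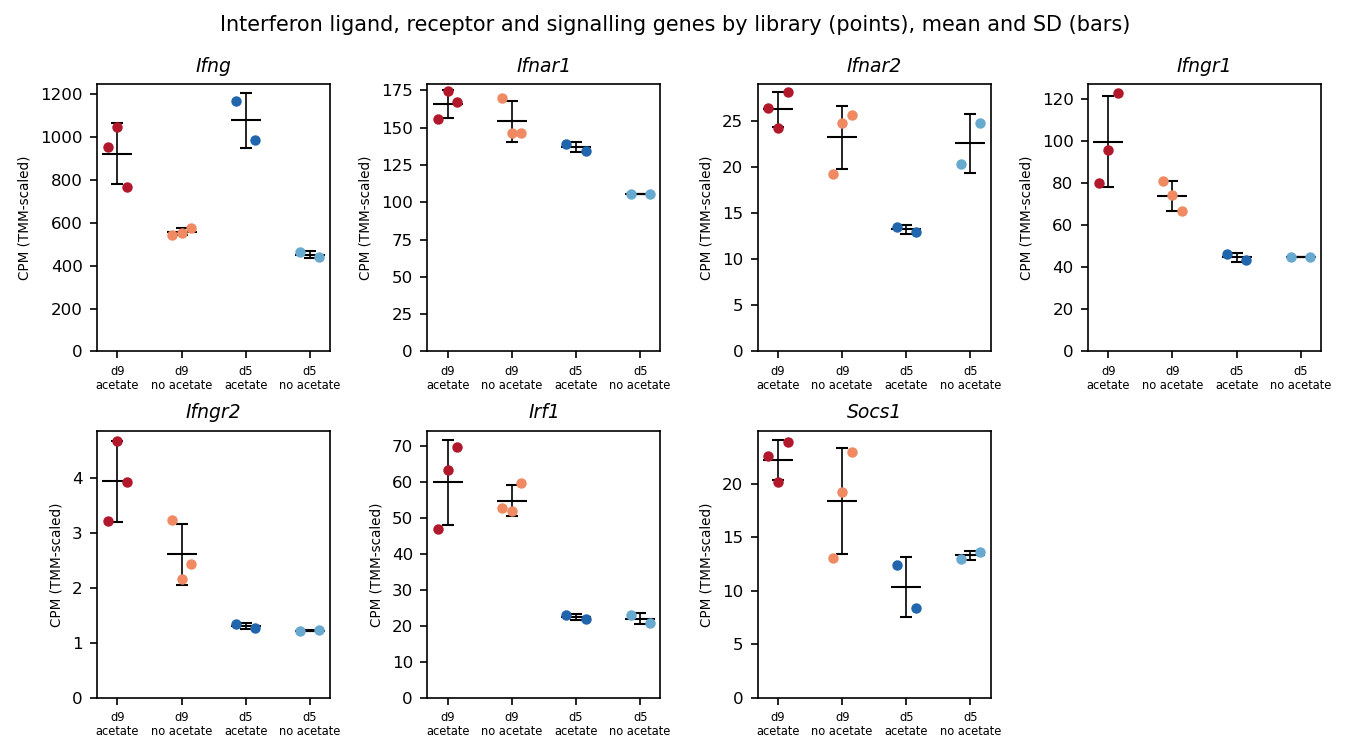
CPM after TMM scaling of Ifng, its receptor and the type I receptor, Irf1 and Socs1 in each library (points), with group means and SD (bars), groups from left to right being d9 with acetate, d9 without, d5 with and d5 without. Ifng separates by acetate at each day, while Ifngr1, Ifngr2 and Irf1 are higher in all 6 d9 libraries than in all 4 d5 libraries.

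Of the signalling genes, the Janus kinases Tyk2 and Jak1 rose in both states. The call of Jak1 without acetate was lost without d5 no acetate replicate 1 (0.0715) or 2 (0.0706). Stat3, which carries interleukin-6 and interleukin-10 family signals, rose with acetate at 1.27 ± 0.26 (adjusted p = 0.00301). Among interferon regulatory factors outside the group, Irf8, Irf1 and Irf5 rose in both states. Irf1, induced early by interferon-γ, had 46.9, 63.3 and 69.7 CPM at d9 with acetate and 52.9, 52.0 and 59.8 CPM without, against 23.1 and 22.0 CPM at d5 with acetate and 23.1 and 21.0 CPM without, at 1.41 ± 0.17 with acetate (adjusted p = 0.00015) and 1.32 ± 0.17 without (adjusted p = 0.000234). Irf8, a factor that CD8 T cells induce on activation, rose by 2.93 ± 0.27 with acetate (adjusted p = 3.4e-05) and 2.16 ± 0.26 without (adjusted p = 0.000154). Of 11 negative regulators, 4 were higher and 1 lower with acetate, where 18.5 and 23.1% of all genes were, and 2 were higher and 2 lower without, near the 15.9 and 21.2% of all genes. Cish, an inhibitor of cytokine receptor signalling, was higher and the phosphatase Ptpn2 lower in both, with calls kept under every library left out. Socs1, which inhibits Janus kinases, rose with acetate (1.10 ± 0.24, adjusted p = 0.00444, and 0.051 without d5 acetate replicate 2) and did not pass without it (0.47 ± 0.23, adjusted p = 0.139, and 0.0162 without d9 no acetate replicate 1).

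Of 10 tested genes listed under interferon induction and sensing, 3 rose and 2 fell with acetate (30 and 20%, where 18.5 and 23.1% of all genes did). Without acetate 4 rose and 1 fell (40 and 10%, where 15.9 and 21.2% of all genes did). With acetate, Ikbke, Ticam1 and Mavs rose and Tlr7 and Aim2 fell, Aim2 not once d5 acetate replicate 2 was left out (0.0869). Without acetate Ikbke, Mavs, Myd88 and Ticam1 rose and Cgas fell. The calls of Mavs, Myd88 and Ticam1 were each lost on leaving out d9 no acetate replicate 2 or 3 or d5 no acetate replicate 1 or 2 (adjusted p of 0.0597 to 0.206), and that of Ticam1 also without d5 acetate replicate 1 (0.0527) or 2 (0.053). All 3 were also lost when scaled by library size only (adjusted p of 0.0857 to 0.103) and with the replicate block (0.0604 to 0.0817). Of 18 tested targets of interferon-γ, 11 rose with acetate and 13 without (61.1 and 72.2%, where 18.5 and 15.9% of all genes did). Gbp10, a further guanylate-binding protein, rose by 3.10 ± 0.37 with acetate (adjusted p = 0.000133) and 3.88 ± 0.45 without (adjusted p = 0.000108). Tap1 and Tap2, the peptide transporter of antigen presentation, and Nlrc5, the activator of MHC class I genes, were also higher in both, with log2 differences of 0.55 to 1.02. Of 58 other interferon-stimulated genes tested, 23 rose and 12 fell with acetate (39.7 and 20.7%), and 21 rose and 9 fell without (36.2 and 15.5%). Of all genes, 18.5 and 15.9% rose and 23.1 and 21.2% fell, so the shares that fell were near those of all genes. The restriction factors Ifitm1, Ifitm2 and Ifitm3 all rose, Ifitm3 by 1.97 ± 0.12 with acetate (adjusted p = 3.87e-06) and 1.70 ± 0.12 without (adjusted p = 6.34e-06). Ly6c2, a surface marker of effector and memory CD8 T cells, rose by 2.92 ± 0.28 with acetate (adjusted p = 4.38e-05) and 3.23 ± 0.29 without (adjusted p = 2.45e-05). Among those that fell in both states were the Schlafen genes Slfn3 and Slfn9, at -1.58 and -1.51 with acetate and -1.32 and -1.58 without, and the DNA-binding Ifi200-family genes Ifi203 and Mndal, at -1.79 and -1.13 with and -2.12 and -1.50 without. These lists were chosen with results of the same libraries known, so their counts are descriptions.

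Some markers of other cells moved with the day, mainly Zbtb46 and Klrb1c, and their part in the d9 over d5 results was not tested. The 7 T cell markers also summed higher at d9, to 2399 to 2820 CPM with acetate and 2539 to 2626 CPM without. At d5 they summed to 2160 to 2233 CPM with acetate and 1882 to 2001 CPM without. The summed level of 8 dendritic cell markers was 71.1 to 99.6 CPM at d9 with acetate and 67.8 to 71.8 CPM without, against 31.6 to 32.3 CPM at d5 with acetate and 19.4 to 25.6 CPM without. Almost all of it was Zbtb46, and Clec9a, Cd209a, Siglech and Ccr9 were at 0 in every library. Xcr1 averaged 0.0985 and 0.0734 CPM at d9 with and without acetate, against 0.216 and 0.229 CPM at d5. Itgax averaged 2.04 and 3.29 CPM at d9 with and without acetate, against 2.57 and 2.34 CPM at d5. Natural killer cell markers, given above with Ifng, were also higher at d9 in each state, with Klra4 and Klra8 at 0 in every d9 library. The 7 monocyte and macrophage markers did not follow the day. They summed to 6.78 to 7.59 CPM at d9 with acetate and 8.48 to 12.4 CPM without, against 5.15 to 6.89 CPM at d5 with acetate and 9.76 to 13.0 CPM without, mostly from Cd68, with Lyz2 at 0 in every d9 library. The 6 B cell markers summed to at most 1.83 CPM in any d9 library and 4.58 CPM in any d5 library. The 5 neutrophil markers summed to at most 1.25 CPM at d9, all from Ly6g, and to 0 at d5.

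The 2 d9 libraries set apart lay below the other 4 in 10 of the 34 genes, Trim25, Adar, Oas3, Oasl2, Stat2, Sp100, Ifih1, Ddx58, Parp14 and Lgals3bp, where 20.5% of all genes did. They lay above in 9, Isg15, Usp18, Bst2, Samd9l, Xaf1, Oas1a, Ifi35, Zbp1 and Igtp, where 16.8% of all genes did. Both acetate states hold 1 of these libraries, and the share of ribosomal protein counts moves with them. Counts of some genes are uncertain because exons overlap those of another gene on the same strand (Igtp with Irgm2, Irf9 with Rnf31, Parp14 with Gm49730, Rtp4 with Gm45338, Herc6 with Gm45193 and Sp100 with n-R5s215). Others overlap a gene on the opposite strand (Dtx3l with Parp9, Irf7 with Phrf1, Adar with Chrnb2, Dhx58 with Dhx58os, Gbp2 with Mir6381, Ifi35 with Gm11626, Usp18 with Gm44148, Oasl1 with Gm13822 and Eif2ak2 with Gm26637), which matters because the labels do not say whether counting used strand.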

How the data were processed

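The deposited values were raw counts per gene in 1 file per library, made by the authors from stranded mRNA libraries of polyA RNA, per the labels' protocols. The submitters' processing notes list STAR, featureCounts, DESeq2, deepTools and GRCm38 without assigning roles. The tool versions, the annotation and the use of strand in counting are not stated there. Symbols and coordinates came from GENCODE for GRCm38, by Ensembl identifier, for 53274 of 53465 genes, and the 191 without a symbol made up no more than 0.02% of any library.

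TMM scaling and the edgeR filter filterByExpr, by group, left 13182 genes. A robust edgeR quasi-likelihood model of the 4 group means was fitted to all 10 libraries (6 residual degrees of freedom, biological coefficient of variation 0.161), and 5 comparisons were tested, with Benjamini-Hochberg adjustment over all these genes and calls under 0.05. Tools were R 4.3.3, edgeR 4.0.16, limma 3.58.1 and DESeq2 1.42.0, and the fit was tested on simulated data with known changes. Total counts were 16.59 to 24.66 M, and counting intervals are exact at 95%. Alternatives were other scalings, filters and tools, a replicate block, the compared libraries alone, each library left out, and both d9 libraries set apart left out, which an earlier description of these data had already named.

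Per-library values are given for the 12 genes of smallest p in each d9 over d5 comparison and the gene highest per kb in each role. Named pathway genes were up to 4 of smallest p per list, direction and comparison, plus Ifng, Ifnb1, Ifnar1, Ifnar2, Ifngr1, Ifngr2, Irf1 and Socs1, and some results on pathway genes are not reported here. The genes, roles and pathway lists were chosen with earlier results of these data known. Same-numbered replicates did not consistently deviate together, so the samples were treated as unpaired.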

Additional observations from a re-analysis of the deposited data

How the results depend on the processing

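Of the calls among these genes, 20 of 27 for d9 over d5 with acetate and 14 of 23 without kept their side of the threshold under every alternative in which they were tested. The filter of 2 CPM in 2 libraries removes Usp18 and Rsad2, which are among them, and leaves 21 higher calls with acetate and 20 without. Leaving out 1 library gave 19 to 27 higher and 2 to 3 lower calls with acetate, and 15 to 23 higher and 2 lower without. Parp14, uncalled with acetate, changed sign to -0.01 without d9 acetate replicate 1 and to -0.0404 without d9 acetate replicate 3 (log2, range -0.04 to 0.41 with 1 library left out). The cause was not tested. Among uncalled acetate differences, the sign changed under at least 1 alternative for 15 of 34 genes at d9.

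At d5, acetate called 0 of these genes in the main fit. With only the libraries compared it called 3 lower (Adar, Oas3, Stat2), beside 1701 genes in all. Without both d9 libraries set apart it called 4 lower (Sp100 in addition) and 1 higher (Isg15), beside 2162 genes in all. When 1 library was left out it called 0 to 1 lower. Over all genes, acetate at d9 called 4, and 197 with no filter, 335 with the DESeq2 Wald test, 213 without both libraries set apart and 0 to 18 with 1 left out. Acetate at d5 called 201, and 578 with no filter, 786 with DESeq2, 1701 with only the libraries compared, 2162 without both set apart and 0 to 498 with 1 left out. The difference of acetate effects called 0, and 99 with no filter, 102 with DESeq2, 255 without both set apart and 0 to 1 with 1 left out. It was not run with only the libraries compared. For d9 over d5, 5480 genes were called with acetate (3108 to 6048 with 1 library left out) and 4895 without (2803 to 5425).

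Replicate numbers are shared between groups. With the replicate block, acetate at d5 called 62 genes, and of these genes 22 were higher and 2 lower at d9 with acetate, and 21 and 2 without. Deviations of same-numbered samples correlated at -0.139, -0.392 and 0.329 at d9 and 0.029 and 0.029 at d5. With 2 libraries per d5 group, the d5 values are equal by construction. The 2 d9 libraries set apart, which differ in number, correlated at 0.509. Fewer libraries and lower depth at d5 limit what could be seen there.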
